A study of Rattus norvegicus with 12 samples.

Results

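Death receptors are membrane proteins of the tumour necrosis factor (TNF) receptor family, and caspases are proteases that cut their targets after aspartate and drive programmed cell death. The genes followed here are 8 by name, the receptors Fas, Tnfrsf10b, Tnfrsf1a, Tnfrsf1b and Tnfrsf12a, and the caspases Casp8, Casp9 and Casp12. Every array probe outside the controls whose accession led to one of these rat symbols was taken. Of the 8 genes 7 had a probe, of 15645 named genes on the array, with 13 probes among 61537. Fas and Casp9 had 3 probes each, Tnfrsf1b and Tnfrsf12a 2 each, and Tnfrsf1a, Casp8 and Casp12 1 each. No probe was matched to Tnfrsf10b, which is not analysed here.

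The data are 1-colour Agilent arrays of total RNA from the renal cortex, the outer part of the kidney that holds the glomeruli and most of the proximal tubules, 1 array per animal. All animals were male Sprague-Dawley rats bought at 5 weeks of age and dosed for 4 weeks. Cisplatin is a platinum compound used against tumours, which binds DNA and is toxic to the proximal tubule. The gavage cisplatin group received 3.75 mg/kg/day by mouth and was set against a gavage water group. The intravenous cisplatin group received 0.75 mg/kg/day by injection, per the label of each sample, and was set against an intravenous water group. The treatment protocol attached to all samples states 3.75 mg/kg/day for cisplatin, and the sample label was used where they disagree. Route, labelled dose and experiment therefore differed together between both cisplatin groups. There were 3 animals in each of the 4 groups, described in the labels as biological replicates.

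When Fas ligand, TNF-related ligands or TNF bind, a receptor that has a death domain gathers adaptor proteins and caspase-8. Caspase-8 is then cut into its active form and activates the executioner caspases. A second route runs through the mitochondria, where released cytochrome c, Apaf1 and caspase-9 form the apoptosome and activate the same executioners. In the kidney, tubule cells carry TNF receptors and Fas and are known to use both routes after toxic injury. Caspases are made as inactive proenzymes, and an RNA level says nothing of their cleavage.

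Of the 7 measured genes, 6 were higher in gavage cisplatin than in gavage water cortex, and all 7 were higher in intravenous cisplatin than in intravenous water cortex. Tnfrsf12a and Fas had the largest differences of the 7, at 25.4-fold and 18.5-fold with gavage and 21.9-fold and 17.8-fold with intravenous dosing. Casp12 followed at 5.63-fold and 3.84-fold, Tnfrsf1a at 3.25-fold and 2.74-fold, and Tnfrsf1b at 3.07-fold and 3.10-fold. Casp8 differed by 1.66-fold and 2.21-fold, and Casp9 passed the test with intravenous dosing alone. Changes were widespread on these arrays: of 32215 features tested (1 probe per gene, the brightest), 59.6% passed in the gavage comparison, 29.5% of all of them as higher, and 58.7% passed in the intravenous comparison, 26.1% as higher. The median log2 difference of the 7 genes was 1.70 with gavage and 1.63 with intravenous dosing, against medians of 0.0013 and -0.07 over all features tested. The genes were chosen with earlier results of these data known, and the contrast of these medians was not tested. A call is an adjusted p under 0.05 from limma's test of all 4 group means, with Benjamini-Hochberg adjustment over all features.

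The values below are log2 signals relative to the 75th percentile of the same array, so that 0 is a signal at that percentile and 1 unit is a doubling. They compare arrays for 1 probe and not 1 gene with another. The 75th percentile itself was 1439 to 1532 on gavage cisplatin arrays and 969.7 to 1019.6 on gavage water arrays, and 1387 to 1407 on intravenous cisplatin arrays and 1008 to 1055 on intravenous water arrays. Between 66.1% and 73.9% of probes were well above background on each array, and none was saturated. Across probes, r was 0.983 to 0.995 between arrays within a group and 0.913 to 0.994 between groups. The 13 probes could all be tested, and 11 of them were well above background on all 12 arrays.

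**Figure D1:**
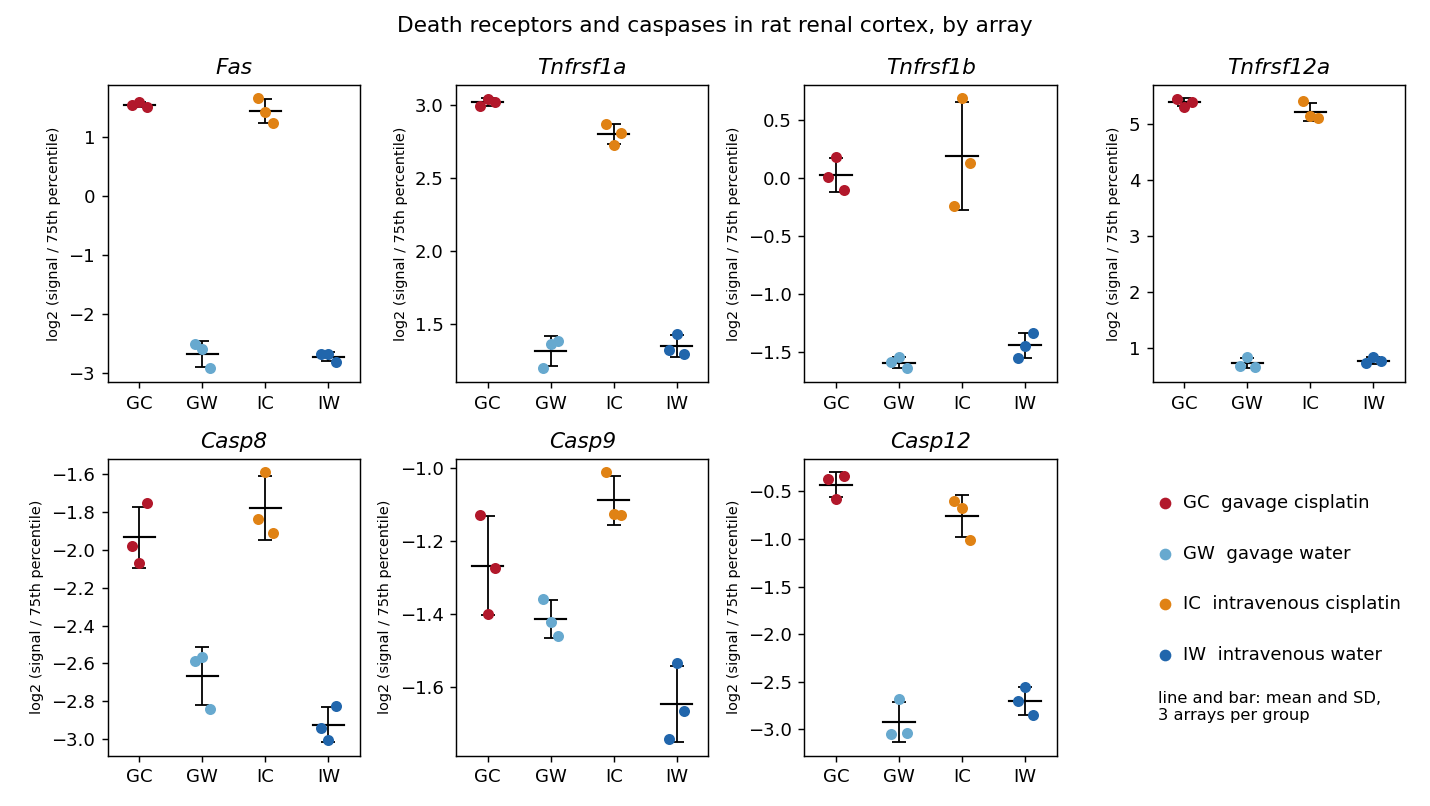
Log2 signal relative to the 75th percentile of the array (vertical axes, 1 scale per gene) for the brightest probe of each of the 7 genes, by group (GC gavage cisplatin, GW gavage water, IC intravenous cisplatin, IW intravenous water). Points are single arrays, lines and bars the mean and SD of 3 arrays; cisplatin and water arrays of the same route lie apart for each gene except Casp9 with gavage.

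Promoters were looked up because Fas and Tnfrsf12a stood apart from the rest in the size of their differences. RefSeq promoters of the GRCr8 assembly, which run from 250 bases before to 50 bases after each gene's start, were found for 6 of the 7 genes, all but Casp8. The longest run of bases that any pair of the 6 shared on the same strand was 18 bases, GGGCGGGCCCAGGCAAAG, in Fas and Tnfrsf12a. It starts at position -47 relative to the Fas start and -88 relative to the Tnfrsf12a start, and was in 2 of the 33365 promoters searched on both strands, these 2. The run was picked as the longest one after the values were seen, so its rarity is no test of it. How often other pairs of promoters share a run of this length was not tested. Shown here are these promoters and that of Tnfrsf1b, all 5′ to 3′ on the strand of the gene. Capitals mark the shared run and any match to the AP-1 motif TGANTCA.
Fas, chr1:241211905-241212204, plus strand: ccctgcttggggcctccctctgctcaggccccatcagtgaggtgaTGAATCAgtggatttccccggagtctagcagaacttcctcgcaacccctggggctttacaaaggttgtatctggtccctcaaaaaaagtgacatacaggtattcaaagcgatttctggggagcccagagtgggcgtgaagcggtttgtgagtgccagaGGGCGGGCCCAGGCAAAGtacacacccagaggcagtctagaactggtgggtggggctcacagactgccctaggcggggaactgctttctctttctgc
Tnfrsf12a, chr10:13213599-13213898, minus strand: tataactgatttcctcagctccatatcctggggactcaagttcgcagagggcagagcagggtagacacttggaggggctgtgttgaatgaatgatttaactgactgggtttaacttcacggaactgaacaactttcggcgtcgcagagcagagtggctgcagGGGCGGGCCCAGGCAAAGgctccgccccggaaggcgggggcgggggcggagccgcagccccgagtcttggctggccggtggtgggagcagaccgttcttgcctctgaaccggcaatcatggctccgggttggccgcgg
Tnfrsf1b, chr5:162387362-162387661, minus strand: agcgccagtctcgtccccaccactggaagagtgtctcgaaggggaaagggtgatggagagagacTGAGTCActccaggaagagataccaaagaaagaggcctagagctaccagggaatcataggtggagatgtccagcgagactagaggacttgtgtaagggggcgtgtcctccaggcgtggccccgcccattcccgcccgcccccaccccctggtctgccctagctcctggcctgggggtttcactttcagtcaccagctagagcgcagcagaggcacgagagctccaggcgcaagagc
The AP-1 motif, searched on both strands, had 1 match in Fas, starting at position -205 relative to the gene start, 1 in Tnfrsf1b, starting at -186, and 0 in Tnfrsf1a, Tnfrsf12a, Casp9 and Casp12. It was found in 7.34% of all promoters searched. The GC box GGGCGG, which overlaps the first bases of the shared run, had 4 matches in Tnfrsf12a, 3 in Tnfrsf1b, 3 in Casp9, 1 in Fas and 0 in Tnfrsf1a and Casp12, and was in 33.1% of promoters. The patterns used for a p53 half-site and an NF-kB site, searched on both strands, had 0 matches in the 6 windows. They were in 7.98% and 4.19% of promoters. These patterns are not printed here, and the 0 does not cover looser forms of the sites. All of these motif counts are matches of letters only, and sites outside these windows were not searched.

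Fas, the receptor of Fas ligand and a classic p53 target in human and mouse cells, read higher in every cisplatin cortex than in any water cortex. Its brightest probe (A_42_P652897) read 1.54, 1.59 and 1.51 in gavage cisplatin cortex and -2.50, -2.58 and -2.92 in gavage water cortex. It read 1.65, 1.42 and 1.24 in intravenous cisplatin cortex and -2.68, -2.67 and -2.81 in intravenous water cortex. The 6 cisplatin arrays all lay above the 6 water arrays, and within each treatment the routes overlapped. The share of all features with 3 cisplatin arrays above 3 water arrays of the same route was 33.2% with gavage and 29.4% with intravenous dosing. The log2 difference was 4.21 ± 0.13 with gavage (SE, 3 arrays per group, limma adjusted p = 3.22e-08) and 4.15 ± 0.13 with intravenous dosing (limma adjusted p = 3.52e-08). The other Fas probes were dimmer and differed by less. Probe A_44_P463745 differed by 3.94 ± 0.36 and 3.36 ± 0.36, and was well above background on 2 of 3 gavage water arrays. Probe A_64_P131736 differed by 2.45 ± 0.52 and 2.30 ± 0.52, and was well above background on 1 of 3 arrays in each water group, so that its water values lie near the limit of measurement. All 3 passed the test in both comparisons. With the mean of the 3 probes in place of the brightest, the Fas difference was 3.53 with gavage and 3.27 with intravenous dosing, over 1.5 times smaller in fold.

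Tnfrsf12a, which encodes the TWEAK receptor Fn14, a receptor without a death domain, had the largest difference of the 7 genes. It read 5.46, 5.32 and 5.40 in gavage cisplatin cortex, against 0.69, 0.83 and 0.66 in gavage water cortex. In intravenous cisplatin cortex it read 5.41, 5.15 and 5.11, against 0.73, 0.84 and 0.76 in intravenous water cortex. The cisplatin groups overlapped, the water groups overlapped, and more than 4 log2 units parted them. The difference was 4.66 ± 0.10 with gavage (SE, limma adjusted p = 3.51e-09) and 4.45 ± 0.10 with intravenous dosing (limma adjusted p = 1.36e-08). Its other probe (A_44_P210173) differed by 4.90 ± 0.12 and 4.39 ± 0.12. Its ligand Tnfsf12, which encodes TWEAK, differed by 0.23 ± 0.09 with gavage (limma adjusted p = 0.048) and by 0.10 ± 0.09 with intravenous dosing, which did not pass (limma adjusted p = 0.361).

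Tnfrsf1a encodes TNF receptor 1, the TNF receptor with a death domain. It read 2.99, 3.04 and 3.02 in gavage cisplatin cortex, against 1.19, 1.37 and 1.38 in gavage water cortex. It read 2.86, 2.73 and 2.81 in intravenous cisplatin cortex, against 1.32, 1.43 and 1.29 in intravenous water cortex. Gavage cisplatin arrays were the highest and did not overlap the intravenous cisplatin arrays (gap 0.12), while the water groups overlapped. The share of all features with the cisplatin groups apart was not computed, so this gap is not read as a result. The difference was 1.70 ± 0.08 with gavage (limma adjusted p = 3.68e-07) and 1.45 ± 0.08 with intravenous dosing (limma adjusted p = 1.27e-06).

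Tnfrsf1b encodes TNF receptor 2, which has no death domain, signals through TRAF proteins and is abundant on leukocytes. It read 0.00, 0.18 and -0.11 in gavage cisplatin cortex, against -1.59, -1.54 and -1.64 in gavage water cortex. In intravenous cisplatin cortex it read -0.24, 0.68 and 0.13, against -1.55, -1.45 and -1.34 in intravenous water cortex. The cisplatin arrays all lay above the water arrays, and the intravenous cisplatin arrays spread most, with an SD of 0.466 against 0.049 to 0.145 in the other groups. The difference was 1.62 ± 0.19 with gavage (limma adjusted p = 5.86e-05) and 1.63 ± 0.19 with intravenous dosing (limma adjusted p = 8.10e-05). Without intravenous cisplatin replicate 2, its highest array, the intravenous difference was 1.39. That array also had the highest summed signal of 9 macrophage markers, 33.6 times the 75th percentile against 21.3 and 21.9 in the other intravenous cisplatin arrays, and the highest of 7 lymphocyte markers, 5.14 against 2.36 and 4.72. Such sums weigh bright probes most, such as that of the macrophage marker Aif1, with a mean of 3.57 in intravenous cisplatin cortex. Aif1 passed in neither comparison (limma adjusted p = 0.481 with gavage and 0.232 with intravenous dosing). The part of macrophages and lymphocytes in the Tnfrsf1b level was not tested. The second probe (A_44_P533794) differed by 1.44 ± 0.19 and 1.78 ± 0.19.

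**Figure D2:**
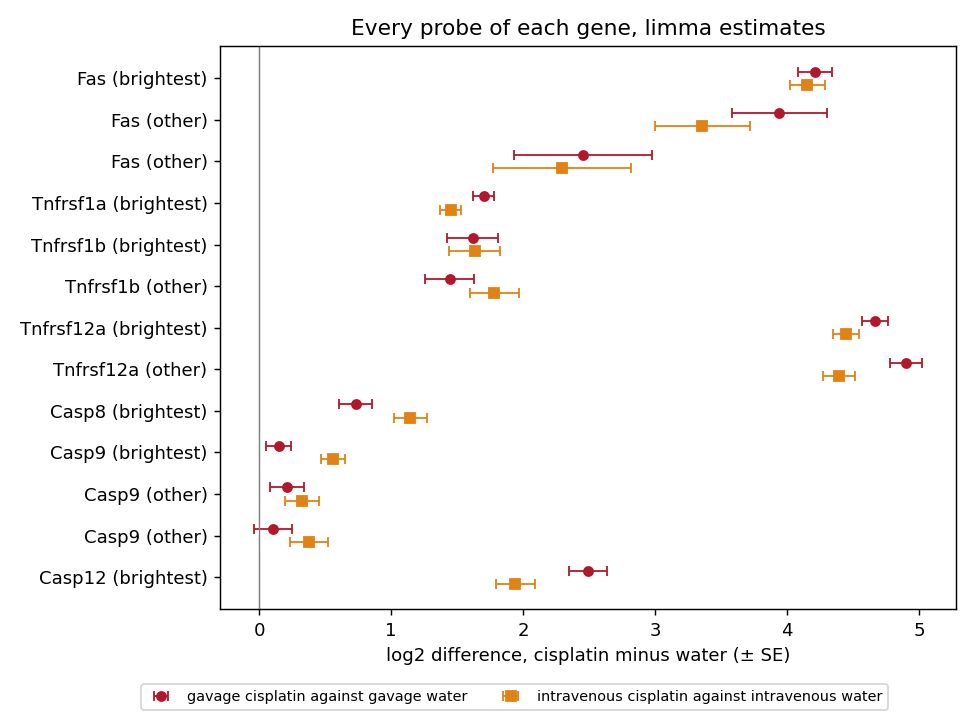
Log2 difference, cisplatin minus water, with its SE (horizontal axis) for each of the 13 probes, in the gavage (circles) and intravenous (squares) comparisons. Probes of Fas differ in size, from 2.45 to 4.21 with gavage, probes of Tnfrsf1b and Tnfrsf12a lie close together, and the 3 probes of Casp9 lie nearest to 0.

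Among the caspases, Casp12 differed most. It encodes caspase-12, which sits at the endoplasmic reticulum and in rodents has been tied to stress of that organelle. Casp12 read -0.37, -0.58 and -0.34 in gavage cisplatin cortex, against -3.05, -2.68 and -3.04 in gavage water cortex. It read -0.60, -0.67 and -1.01 in intravenous cisplatin cortex, against -2.70, -2.56 and -2.85 in intravenous water cortex. All cisplatin arrays lay above all water arrays, and gavage cisplatin arrays lay just above intravenous cisplatin arrays (gap 0.014). As for Tnfrsf1a, the gap between the cisplatin groups is not read as a result. The difference was 2.49 ± 0.15 with gavage (limma adjusted p = 1.05e-06) and 1.94 ± 0.15 with intravenous dosing (limma adjusted p = 6.59e-06).

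Casp8, the initiator caspase that docks at death receptors, differed by less. Casp8 read -1.98, -2.07 and -1.75 in gavage cisplatin cortex, against -2.59, -2.57 and -2.84 in gavage water cortex. In intravenous cisplatin cortex it read -1.84, -1.59 and -1.91, against -2.95, -3.01 and -2.82 in intravenous water cortex. Cisplatin and water arrays did not overlap, while both cisplatin groups overlapped and both water groups did. The difference was 0.73 ± 0.12 with gavage (limma adjusted p = 5.63e-04) and 1.15 ± 0.12 with intravenous dosing (limma adjusted p = 4.90e-05).

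Casp9, the initiator caspase of the mitochondrial route, was the one gene of the 7 that did not pass with gavage. Casp9 read -1.13, -1.40 and -1.27 in gavage cisplatin cortex, against -1.36, -1.42 and -1.46 in gavage water cortex, and these groups overlapped. The gavage difference was 0.15 ± 0.09, with a 95% interval of -0.06 to 0.35 (limma adjusted p = 0.197). It read -1.01, -1.13 and -1.13 in intravenous cisplatin cortex, against -1.74, -1.54 and -1.67 in intravenous water cortex, with no overlap. The intravenous difference was 0.56 ± 0.09 (1.47-fold, limma adjusted p = 6.08e-04). Its other probes differed by 0.21 ± 0.13 and 0.10 ± 0.15 with gavage, neither passing. With intravenous dosing probe A_44_P121227 differed by 0.32 ± 0.13 and did not pass (limma adjusted p = 0.0536), and probe A_64_P205127 differed by 0.38 ± 0.15 and passed (limma adjusted p = 0.0448). Counted by probe, 10 of 13 rose with gavage and 12 of 13 with intravenous dosing, against 29.6% and 27.6% of the 43900 probes tested. The probes that did not pass were all of Casp9.

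The call for Casp9 with gavage depended on scaling. Scaled to 7 spike-in control probes in place of the 75th percentile, the median of all features moved to 0.66 with gavage and 0.48 with intravenous dosing, and the share of calls that were higher was 86.5% and 84.7%, against 49.4% and 44.5% as reported. Casp9 was then 0.81 higher with gavage and passed (limma adjusted p = 1.99e-05), against that median of 0.66. The other genes moved by similar amounts, Fas to 4.87 with gavage and 4.71 with intravenous dosing. The other 6 genes were higher in both comparisons under each scaling tried, and Casp9 was higher in the intravenous comparison under each of them.

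Whether the cisplatin differences themselves differed between the experiments was tested as the intravenous difference minus the gavage difference, and 0 of the 7 genes passed in limma, 3 of them (Casp8, Casp9 and Casp12) with an unadjusted p under 0.05. Of all features 1.19% passed this test and 19.4% had an unadjusted p under 0.05. The first share rests on single arrays: it was 7.48% without gavage cisplatin replicate 1, 6.68% without intravenous cisplatin replicate 1, and at most 0.0062% on leaving out any other array, while 0 of the 7 genes passed each time. Casp12 had the largest value, -0.55 with a 95% interval of -1.01 to -0.09 (unadjusted p = 0.0230, limma adjusted p = 0.187). Casp8 and Casp9 each had 0.41, with adjusted p-values of 0.233 and 0.137 from limma, and the Casp9 interval was 0.12 to 0.70. The other Casp9 probes had 0.11 (A_44_P121227, limma adjusted p = 0.768) and 0.28 (A_64_P205127, limma adjusted p = 0.490). For Tnfrsf1a the value was -0.25 and for Tnfrsf12a -0.22, with limma adjusted p-values of 0.269 and 0.420. Fas had -0.06 with an interval of -0.47 to 0.35, and Tnfrsf1b 0.02. By probe 0 of 13 passed in limma (4 at an unadjusted p under 0.05), against 0.815% of all probes, and the second Tnfrsf12a probe had -0.51 (limma adjusted p = 0.156).

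Both water groups were compared as a baseline, and 0 of the 7 genes and 0.0% of all features passed in limma. The gavage water arrays were all on slide 1 and the intravenous water arrays all on slide 2. Slide, route and experiment therefore differed together between the water groups. Unadjusted p was under 0.05 for 4544 features and for 1 of the 7 genes, Casp9. The 0 over all features did not hold in every setting, with 1706 features passing with array weights and 1108 without gavage cisplatin replicate 1, but 0 of the 7 genes passed in these. By its brightest probe Casp9 was 0.23 lower in intravenous water than in gavage water cortex, with no overlap (unadjusted p = 0.0305, limma adjusted p = 0.297). The other Casp9 probes differed by 0.11 (A_44_P121227, limma adjusted p = 0.760) and -0.16 (A_64_P205127, limma adjusted p = 0.687). Both overlapped, so the lack of overlap was seen in the brightest probe alone. The share of all features with the water groups apart was not computed. Casp8 was 0.26 lower in intravenous water than in gavage water cortex (limma adjusted p = 0.385). The value for the difference between the experiments is the difference of the cisplatin groups less that of the water groups. For Casp9 intravenous cisplatin lay 0.18 above gavage cisplatin cortex, and for Casp8 0.15 above it, both with overlap.

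Slide was tested as a batch. Slide 1 held gavage cisplatin replicate 1 and the 3 gavage water arrays, gavage cisplatin replicates 2 and 3 shared slide 2 with all 3 intravenous water arrays, and the 3 intravenous cisplatin arrays were alone on slide 3. Within slide 1, the cisplatin array lay above the water arrays by 4.20 for Fas, 4.73 for Tnfrsf12a, 2.55 for Casp12, 1.67 for Tnfrsf1a, 1.60 for Tnfrsf1b, 0.68 for Casp8 and 0.29 for Casp9. Within slide 2, where route also differs, gavage cisplatin lay above intravenous water by 4.27 for Fas, 4.58 for Tnfrsf12a, 2.24 for Casp12, 1.68 for Tnfrsf1a, 1.48 for Tnfrsf1b, 1.02 for Casp8 and 0.31 for Casp9. In both slides no cisplatin array overlapped the water arrays for any of the 7 genes, Casp9 included, although its full gavage groups overlapped. Slide 1 sets 1 cisplatin array against 3 water arrays, and slide 2 sets 2 against 3. The share of all features apart within a slide was not computed, so this lack of overlap is not read as a result. With slide as a fixed block the same 6 genes passed with gavage, a fit that rests on the lone cisplatin array of slide 1. For the intravenous comparison slide and group cannot be told apart by a fixed block, and with slide as a random block (correlation -0.012) all 7 genes passed.

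The other genes of the pathway were taken from 8 lists, with 62 of 71 genes on the array and 58 tested. With gavage 27 rose, 11 fell and 20 did not pass, with a median log2 difference of 0.22. Of all features 29.5% rose and 30.2% fell. With intravenous dosing 30 rose, 11 fell and 17 did not pass, with a median of 0.35, against 26.1% and 32.6% of all features. Of these 58 genes 0 passed limma's test of a difference between the experiments, and 8 had an unadjusted p under 0.05, against that 19.4% of all features.

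Of 7 death ligands tested, 4 rose with gavage, and 3 rose and 1 fell with intravenous dosing. Tnfsf15, a ligand of the receptor Tnfrsf25, differed by 1.84 ± 0.27 with gavage and 1.28 ± 0.27 with intravenous dosing, where it was well above background on 2 of 3 water arrays. Tnf differed by 1.09 ± 0.30 and 1.14 ± 0.30, and Ltb, a membrane partner of lymphotoxin, by 0.52 ± 0.18 and 1.13 ± 0.18. Lta, which encodes lymphotoxin alpha, fell with intravenous dosing at -0.76 ± 0.16 and did not pass with gavage (-0.37 ± 0.16). The ligand of Fas did not pass in either comparison: Faslg differed by -0.12 ± 0.41 and 0.73 ± 0.41. Tnfsf10, which encodes the ligand TRAIL, differed by -1.22 ± 0.53 and -0.96 ± 0.53 and did not pass.

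Of 10 other TNF receptor family genes, 6 rose and 3 fell with gavage, and 6 rose and 2 fell with intravenous dosing. Tnfrsf14 fell, at -1.81 ± 0.13 and -1.06 ± 0.13. Tnfrsf11b, which encodes the decoy receptor osteoprotegerin, fell at -3.49 ± 0.59 and -2.72 ± 0.59, the first of these being the largest gavage difference among the 58 genes. Tnfrsf21, death receptor 6, differed by -0.68 ± 0.18 with gavage, and by -0.33 ± 0.18 with intravenous dosing, which did not pass. Tnfrsf25, a receptor with a death domain, rose at 1.06 ± 0.17 and 0.67 ± 0.17. Cd40, a receptor of antigen-presenting cells and tubule epithelium, rose at 0.89 ± 0.16 and 1.22 ± 0.16, and Ltbr, the lymphotoxin beta receptor, at 0.66 ± 0.10 and 0.59 ± 0.10. Tnfrsf9, a costimulatory receptor, rose at 1.18 ± 0.26 and 1.37 ± 0.26.

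Among 10 receptor adaptors and signalling genes, 5 rose and 1 fell with gavage, and 6 rose and 1 fell with intravenous dosing. Traf1, an adaptor of TNF receptor 2, rose at 0.88 ± 0.12 and 1.24 ± 0.12. Map3k14, the kinase of the noncanonical NF-kB pathway, rose at 0.80 ± 0.09 and 0.83 ± 0.09. The adaptor Daxx rose at 0.56 ± 0.10 and 0.62 ± 0.10. Cradd, an adaptor with a death domain and a caspase recruitment domain, fell at -0.49 ± 0.11 and -0.89 ± 0.11. Fadd, which links death receptors to caspase-8, did not pass with gavage (0.20 ± 0.14) and rose with intravenous dosing at 0.73 ± 0.14. Of 8 inhibitors, 3 rose and 2 fell with gavage, and 4 rose and 1 fell with intravenous dosing. Birc3, an inhibitor of apoptosis protein and NF-kB target, rose at 1.93 ± 0.21 and 2.17 ± 0.21, and Birc5, which encodes survivin, at 1.22 ± 0.22 and 0.93 ± 0.22. The deubiquitinase Cyld rose at 0.58 ± 0.12 and 0.85 ± 0.12. Birc2 rose with intravenous dosing at 0.39 ± 0.11. Cflar, which encodes the caspase-8 inhibitor c-FLIP, fell at -0.90 ± 0.19 and -0.60 ± 0.19. Xiap, an inhibitor of caspases, fell with gavage at -0.29 ± 0.10 and did not pass with intravenous dosing (-0.17 ± 0.10).

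Among other caspases, the inflammatory caspases Casp4 and Casp1 rose in both comparisons, Casp4 at 1.11 ± 0.16 and 1.00 ± 0.16 and Casp1 at 1.36 ± 0.20 and 1.06 ± 0.20. Casp6 fell with intravenous dosing at -0.57 ± 0.09. Casp2 passed in neither comparison. Of 5 apoptosome genes, Apaf1, the scaffold that binds caspase-9, rose at 0.96 ± 0.14 and 1.07 ± 0.14, and Septin4, an antagonist of Xiap in one of its isoforms, at 1.56 ± 0.20 and 1.15 ± 0.20. Cycs, which encodes cytochrome c of the respiratory chain, fell at -1.57 ± 0.17 and -1.33 ± 0.17. Diablo and Htra2 did not pass.

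Of 7 caspase substrates and nucleases the same 4 fell in both comparisons, and 2 rose with intravenous dosing. The median of the 7 was -0.36 with gavage and -0.42 with intravenous dosing, and 0.30 and 0.13 under spike-in scaling, so that its sign depended on the scaling. Aifm1, a mitochondrial flavoprotein that can carry death signals to the nucleus, fell at -1.31 ± 0.10 and -0.90 ± 0.10. Gsdme, a gasdermin cut by a caspase, fell at -1.54 ± 0.22 and -1.17 ± 0.22. Endog, a mitochondrial nuclease, fell at -0.92 ± 0.21 and -1.08 ± 0.21, and Dffb, the caspase-activated DNase, at -0.36 ± 0.09 and -0.42 ± 0.09. Parp1 and Dffa, both cut by caspases, rose with intravenous dosing at 0.32 ± 0.07 and 0.32 ± 0.10. Of 5 necroptosis and inflammasome genes 4 rose in both comparisons. Ripk3, the kinase that starts necroptosis, rose at 2.50 ± 0.15 and 2.30 ± 0.15. Nlrp3, a sensor of the inflammasome, rose at 1.30 ± 0.22 and 1.63 ± 0.22, its adaptor Pycard at 0.87 ± 0.21 and 1.02 ± 0.21, and the cytokine Il18 at 0.44 ± 0.17 and 0.55 ± 0.17.

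Some calls among these genes were lost or turned under another scaling. Under spike-in scaling 44 of the 58 genes rose and 5 fell with gavage, and 42 rose and 5 fell with intravenous dosing. The sign turned from negative to positive for Cradd, Dffb and Xiap with gavage and for Dffb with intravenous dosing. Dffb and Xiap then passed as higher with gavage, at 0.30 (limma adjusted p = 0.0320) and 0.37 (limma adjusted p = 0.0410). Under that scaling Cflar, Endog and Tnfrsf21 with gavage, and Casp6, Cflar, Cradd, Endog and Lta with intravenous dosing, did not pass. With quantile normalization Tnfrsf21 with gavage was -0.43 (limma adjusted p = 0.0775) and Cflar with intravenous dosing -0.48 (limma adjusted p = 0.0634), both without a call. With normexp background correction Tnfrsf11a with gavage was 0.10 (limma adjusted p = 0.549) and Tnfsf15 with intravenous dosing 0.33 (limma adjusted p = 0.0541), both without a call.

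**Figure D3:**
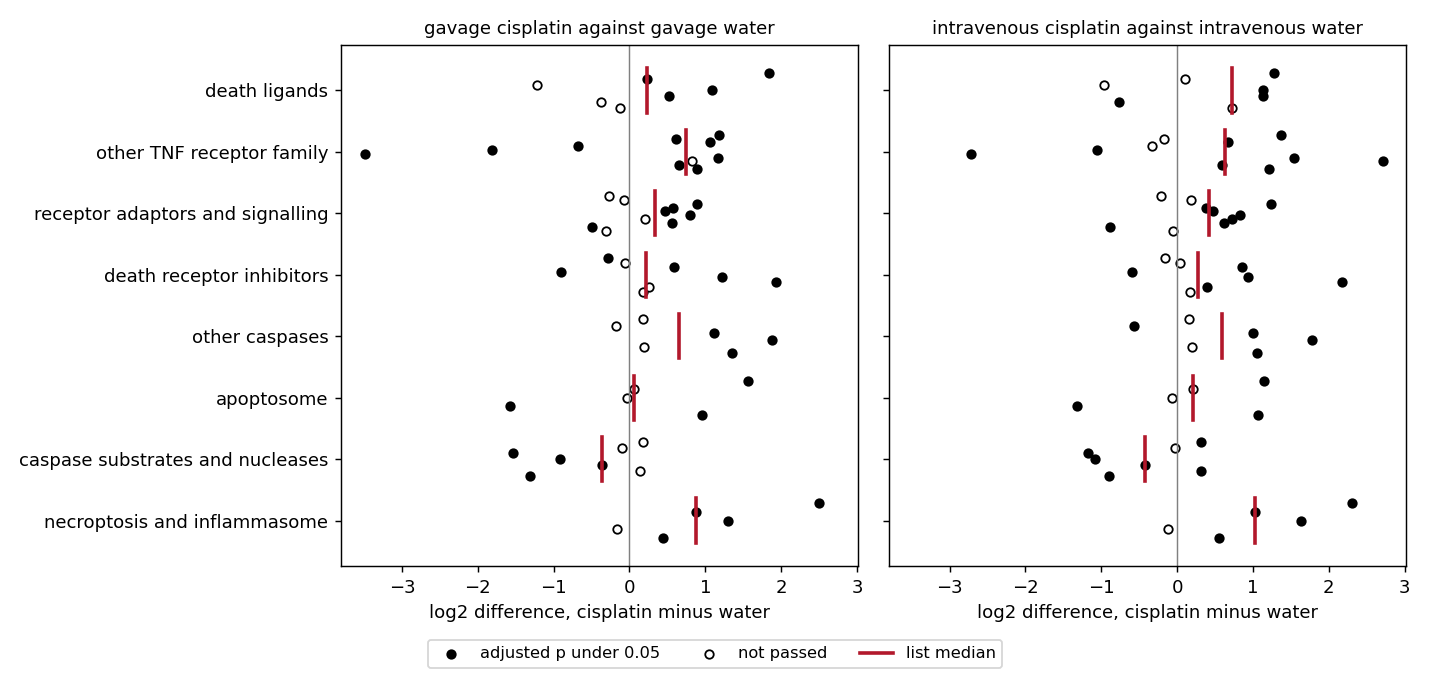
Log2 difference, cisplatin minus water, of each tested gene in the 8 pathway lists (left, gavage; right, intravenous), with filled points past the test, open points not past it, and a red line at the list median. The necroptosis and inflammasome list has the highest medians, 0.87 and 1.02, and caspase substrates and nucleases the lowest, -0.36 and -0.42 (0.30 and 0.13 under spike-in scaling).

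The cortex is a mixture of cells, and in such samples fewer cells of a type and less RNA per cell cannot be told apart. Markers of other cells moved with cisplatin. Beside the counts of rising markers below, 29.5% of all features rose with gavage and 26.1% with intravenous dosing. The sums of marker signals below weigh bright markers most. Of 9 macrophage markers 7 rose with gavage and 6 with intravenous dosing, with a summed signal (in multiples of the 75th percentile) of 21.2 to 27.3 in gavage cisplatin and 10.2 to 13.2 in gavage water cortex, and of 21.3 to 33.6 in intravenous cisplatin and 8.49 to 19.6 in intravenous water cortex. Cd163 was not above background in either water group, nor Itgam in gavage water. Of 7 lymphocyte markers 1 rose with gavage and 5 with intravenous dosing, with sums of 2.17 to 2.78 in gavage cisplatin and 1.66 to 2.18 in gavage water, and of 2.36 to 5.14 in intravenous cisplatin and 1.27 to 1.75 in intravenous water. Fibroblast markers rose in 6 of 6 and 5 of 6 tested genes, with sums of 66.9 to 99.6 in gavage cisplatin and 12.4 to 18.7 in gavage water, and of 47.5 to 92.8 in intravenous cisplatin and 11.5 to 17.2 in intravenous water. Lum and Postn were not above background in water cortex. Cd163, Itgam and Lum could pass the filter through cisplatin arrays alone where water arrays were below background. Without the markers below background on all water arrays of a comparison, 5 of 7 and 5 of 8 macrophage markers and 5 of 5 and 4 of 5 fibroblast markers rose. Of 5 neutrophil markers 3 were tested and 0 passed in limma in either comparison (0 at an unadjusted p under 0.05), and Elane and Ngp were not above background in any group.

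Markers of the kidney's own cells were above background in every group. Of 6 proximal tubule markers 6 fell with gavage and 5 with intravenous dosing, with sums of 69.7 to 151 in gavage cisplatin and 956 to 1088 in gavage water, and of 112 to 374 in intravenous cisplatin and 885 to 1020 in intravenous water. Distal nephron markers fell in 5 of 6 in both comparisons, podocyte markers in 5 and 4 of 6, and endothelial markers in 3 and 2 of 7, against 30.2% and 32.6% of all features; the endothelial counts are near those shares. The part of the cell types with these markers in the levels of the death receptors and caspases was not tested.

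Genes with the most similar profile were found as the smallest root mean square difference between log2 values centred over the 12 arrays, among 12598 other named genes. This measure compares both the size and the order of the values, and all genes share the arrays. For Fas they were Timp1 (0.147), which encodes an inhibitor of metalloproteinases, Slc27a3 (0.161) and Slco4a1 (0.195). For Tnfrsf12a they were the integrin subunit gene Itgb4 (0.211), Fas itself (0.218) and Slc27a3 (0.222). Tnfrsf1a was nearest to Cbarp, the tropomyosin gene Tpm1 and Tmem132a (0.0845 to 0.102), and Tnfrsf1b to Glipr1, Atad2 and Zfp367 (0.157 to 0.179). Casp8 was nearest to the NF-kB inhibitor gene Nfkbie, Cd40 and Pwwp3a (0.115 to 0.127). Casp9 was nearest to Arhgef1, the ribosomal protein gene Rpl8 and Socs4 (0.0677 to 0.0757), and Casp12 to the collagen gene Col18a1, Plec and the asparagine synthetase gene Asns (0.124 to 0.153).

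**Figure D4:**
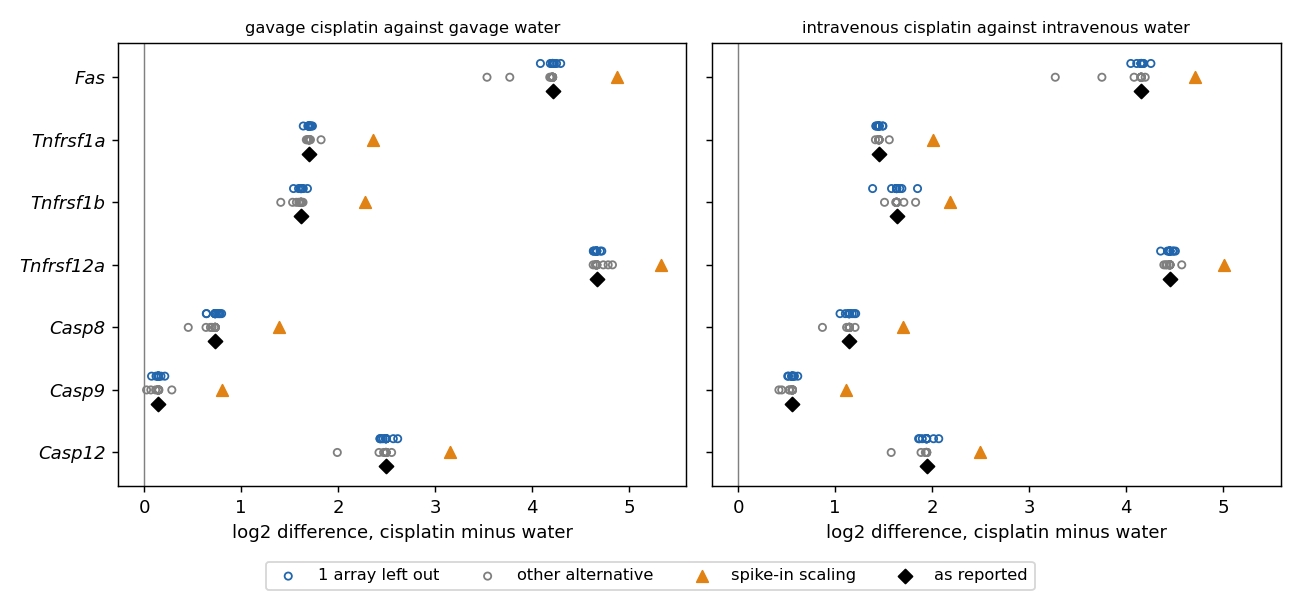
Log2 difference, cisplatin minus water, of each of the 7 genes (left, gavage; right, intravenous) as reported (black diamonds), with 1 array left out (blue), under spike-in scaling (orange triangles) and under the other alternatives (grey). The values stay above 0 throughout, and spike-in scaling gives the highest, such as 4.87 for Fas with gavage.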

How the data were processed

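Labelled RNA of 12 animals was read on 1-colour Agilent arrays. Per the submitters' processing notes, the authors used Agilent Feature Extraction 10.7, given as 10.7.1.1 in the file headers, to read the spots. The deposited processed intensity is background-subtracted within each array, per the file headers, and was the starting value here. The raw median intensity of spot and background, also deposited, served for normexp. The authors' deposited value table holds a linear ratio of the processed intensity to the array's 75th percentile; this was found by setting it against the scanner values of 61537 probes (log2 SD 0.000515 to 0.00645 per array; column medians 0.109 to 0.121), and the reason for that scaling is not stated.

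Log2 processed intensity minus its 75th percentile was used, without 1439 control spots and 82 uneven spots. Probe accessions were looked up in a GRCr8 table, for names only, since the array design refers to rn4: 28206 probes had 1 symbol, 33331 none and 0 several. The brightest probe over 12 arrays stood for a gene, tested where 1 group or more had it well above background in all 3 arrays (32215 of 45433 features). All 4 group means were fitted by limma (3.58.1, under R 4.3.3), with 8 residual and 2.09 prior degrees of freedom, two-sided, with Benjamini-Hochberg adjustment and calls under 0.05; the scripts were tested on simulated data. Every probe was also fitted on its own (43900 probes). Precision is limited by the 3 arrays per group.

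The members, gene lists and settings were chosen with earlier results of these data known. The text names all members and probes, per list up to 4 genes with the smallest p past the test in each comparison and any gene where 3 or fewer moved one way, and the 3 nearest genes of each member; certain genes taken by this rule are not reported here. Chosen after their values were seen were Faslg, Tnfsf10, Fadd, Casp2, Diablo and Htra2, each of which did not pass in at least 1 comparison, Tnfrsf11a, and the promoter searches. Same-numbered replicates were checked for pairing: their deviations correlated at -0.111 to 0.0626, so the numbers were not taken to pair animals. Alternatives were normexp, quantile and spike-in scaling, other filters and probe rules, the 6 arrays of an experiment alone, slide and replicate blocks, array weights, uneven spots kept, the deposited table, and leaving out each array.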

Additional observations from a re-analysis of the deposited data

How the results depend on the processing

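Of the 7 genes, 6 passed with gavage and 7 with intravenous dosing under every alternative run, except that Casp9 also passed with gavage under spike-in scaling (0.81), making 7. None passed in the difference between the experiments or between the water groups under any alternative; the lowest adjusted p for Casp9 in the test between experiments was 0.0501. Leaving out 1 array moved Fas between 4.09 and 4.29 with gavage and between 4.05 and 4.25 with intravenous dosing, and Tnfrsf1b with intravenous dosing between 1.39 and 1.85. Normexp gave the lowest Casp8 and Casp12 values with gavage, 0.46 and 1.99, and slide as a fixed block gave Casp8 0.68 (limma adjusted p = 0.0133). Normexp also made 38.9% of gavage calls higher, against 49.4% as reported. With the replicate number as a block the counts were 6 and 7 genes, 10 and 13 probes and 36 and 41 pathway genes, the Fas differences 4.21 and 4.15, and no call of the 7 genes changed. Pathway genes called ranged from 34 to 49 with gavage and from 38 to 47 with intravenous dosing, and probes from 8 to 13 and from 11 to 13.

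The count of pathway genes that differed between the experiments was 0 as reported and 4 with array weights (Aifm1, Casp6, Tnfrsf14 and Tnfrsf4). Leaving out 1 array gave 0 to 2: Tnfrsf14 and Tnfrsf4 without gavage cisplatin replicate 1, and Tnfrsf14 and Septin4 without intravenous cisplatin replicate 1; the cause was not tested. Some values near 0 that passed in no setting changed sign. The Fas difference between the experiments was 0.0145 with quantile normalization, and -0.163 to 0.0693 on leaving out 1 array (above 0 without gavage water replicate 3 or intravenous cisplatin replicate 3). That of Tnfrsf1b was -0.0882 with spike-in scaling, and -0.231 (without intravenous cisplatin replicate 2) to 0.232 (without intravenous cisplatin replicate 1) on leaving out 1 array. Between the water groups, Fas was 0.116 with spike-in scaling, 0.210 with the mean of its probes and -0.177 to 0.0323 on leaving out 1 array, and Tnfrsf1a was -0.0086 with slide as a fixed block and -0.0262 to 0.0682 on leaving out 1 array. With slide as a fixed block the intravenous comparison and the difference between the experiments could not be fitted. Signal over background limits the 2 dimmer Fas probes, whose water values are near the limit of measurement.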
